A study of Mus musculus with 6 samples.

Results

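The 10 genes described here encode the 5 subunits of the transcription factor NF-kB (Nfkb1, Nfkb2, Rel, Rela and Relb), 3 classical IkB inhibitors (Nfkbia, Nfkbib and Nfkbie) and 2 nuclear IkB proteins (Nfkbiz and Bcl3). They were picked by name from the 16516 genes of an RNA-seq table, and each of the 10 symbols was found once. The table came from CD11b+ cells purified with magnetic beads (MACS) from the cortex of C57BL6/J mice, which were 8 to 10 weeks old and male. The 4LPS mice were given lipopolysaccharide (LPS) intraperitoneally at 500 µg/kg on 4 consecutive days, and the NS mice were given normal saline on the same days. The cells were collected at D7, which is 7 days after the first injection, and RNA-seq was performed on 3 samples of 4LPS and 3 samples of NS, each pooled from 2 mice. The study used this comparison to look for molecular changes in the cells that it labels as microglia, after the 4 LPS doses that it examined for protection in experimental stroke. The p-values measure the spread between these pools.

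NF-kB factors are dimers. In resting cells most of them are held in the cytoplasm by IkB proteins. In the classical pathway, receptors for LPS, TNF and IL-1 activate the IKK kinase complex, IkB is degraded, and dimers of RELA, REL and p50 (made from Nfkb1) enter the nucleus. In the alternative pathway, receptors of the TNF family stabilise the kinase NIK, the precursor p100 (made from Nfkb2) is cut to p52, and dimers of p52 with RELB are released. Several NF-kB and IkB genes are themselves targets of NF-kB, and in microglia and other macrophages the pathway drives much of the response to LPS.

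The promoters of these genes were searched for the DNA sequence that NF-kB binds, known as the kB consensus, because feedback on NF-kB and IkB genes runs through such sites in mouse and human cells. RefSeq promoter windows, which hold 250 bases before and 50 bases after a transcription start in build GRCm38.p6, matched 7 of the 10 genes and gave 9 windows, of which 3 belong to Nfkb2. Nfkb1, Relb and Nfkbiz were not matched. Each window was placed in GRCm39 by an exact match. Letters that fit the kB consensus on either strand were found in 7 of the 9 windows, against 4.51% of all 32851 windows in the RefSeq table. Windows 2 and 3 of Nfkb2 overlap and share 1 of these matches, so the 7 windows are not independent. The matches lie in windows of 5 of the 7 genes (Bcl3, Rel, Nfkbia, Nfkbie and Nfkb2), while the windows of Nfkbib and Rela held none. A looser form, GGGNNNNNCC on either strand, which every match of the consensus also fits, was found in 8 of the 9 windows and in 50.79% of all windows. One stretch of each of the 5 genes, and 2 of Nfkb2, are shown 5′ to 3′ on the strand of the gene, with the letters that fit the consensus in capitals.
Nfkb2 (chr19:46293130-46293154, plus strand): tcgtcacGGGAATTCCCCccctcgg
Nfkb2 (chr19:46293158-46293181, plus strand): gccgaaaGGGGCTTTCCcggctgg
Bcl3 (chr7:19556662-19556685, minus strand): gcggcagGGGAAGTCCCgctgccc
Rel (chr11:23721044-23721068, minus strand): aagcagcGGGAAATCCCCccccctc
Nfkbia (chr12:55539445-55539468, minus strand): ctggcttGGAAATTCCCcgcgcct
Nfkbie (chr17:45866513-45866536, plus strand): gcaaacaGGGGGATTCCggagggg
The capitals start at base -39 and -11 from the RefSeq start of Nfkb2, at -92 in Rel, at -29 in Nfkbia and at -106 in Nfkbie, where -1 is the last base before the start. In Bcl3 they start at base 3 of the transcript. In the GENCODE annotation these stretches of Nfkb2, Bcl3 and Rel overlap an exon of their gene, whereas the stretches of Nfkbia and Nfkbie are in no exon of their gene. A match of letters is a description, and binding was not measured.

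The expected counts that the authors deposited were rounded, scaled with TMM factors to a common library total (CPM) and compared by edgeR's quasi-likelihood test over 13151 genes, with Benjamini-Hochberg adjustment and a threshold of 0.05. Total counts were 15164123 to 15462396 in 4LPS and 15158342 to 15746606 in NS. On the first principal component of all genes (61.3% of the variance), 4LPS replicates 1 to 3 lay at -16.75, -49.65 and -33.4. NS replicates 1 to 3 lay at 48.5, 40.2 and 11.1, so NS replicate 3 was the NS sample nearest to 4LPS. On the second component (18.6%) NS replicate 3 stood apart from NS replicates 1 and 2 (-34.1, against 4.66 and 5.32). On the same component 4LPS replicate 1 lay at 30.4, and 4LPS replicates 2 and 3 at -14.5 and 8.22. Calls of the 10 genes that change without one of these samples are given beside them. Because RNA was measured over the whole purified fraction, fewer cells of a type and less RNA per cell cannot be told apart. Markers of natural killer (NK) cells in particular were higher in 4LPS, with a sum of 109 to 125 CPM in 4LPS and 5.66 to 10.5 CPM in NS. All 10 genes of the NF-kB set passed the filter on low counts. Of these, 4 were higher in 4LPS (Nfkb1, Nfkb2, Relb and Bcl3), 0 were lower, and 6 did not pass. Of all genes tested, 9.95% were higher and 6.43% were lower. By DESeq2, 5 of the 10 genes were higher and 0 were lower, and 10.9% of all genes were higher. By limma-voom 4 were higher and 0 were lower, and 9.95% of all genes were higher. Without adjustment, 6 of the 10 genes had an edgeR p under 0.05, but the share of all genes at that level was not determined. That count is therefore not read further. The fitted log2 fold change of 4LPS over NS was above 0 for 10 of 10 genes with TMM factors, against 47.27% of all genes, although those of Rel and Rela turn negative under other scalings given below. The median log2 fold change was 0.35 over the 10 genes and -0.02 over all genes. In 4 genes every 4LPS sample lay above every NS sample in CPM, which 19.9% of all genes also did. Of the 5 genes with letters of the kB consensus in a promoter window, 2 were higher in 4LPS (Nfkb2 and Bcl3) and 3 did not pass (Rel, Nfkbia and Nfkbie).

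**Figure D1:**
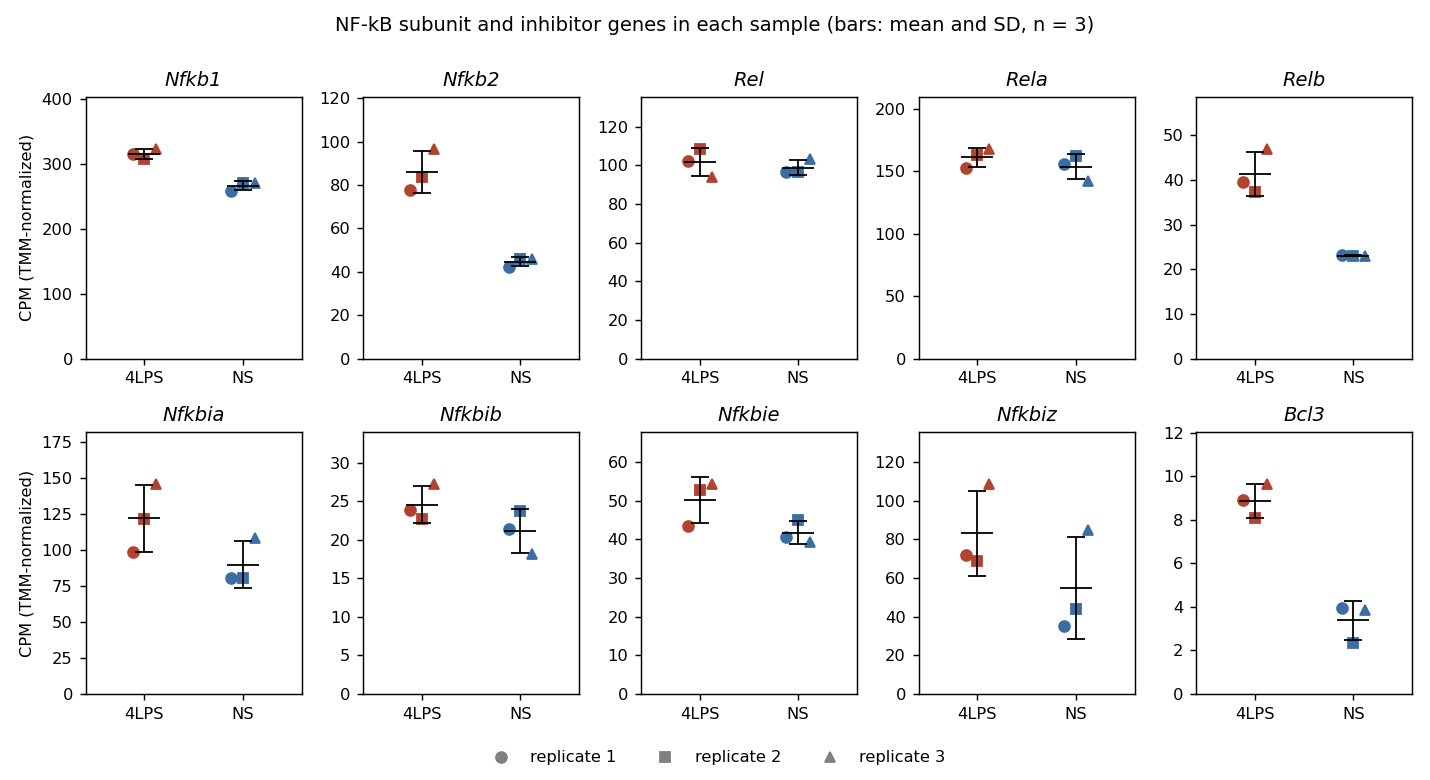
Levels of the 10 NF-kB and IkB genes in each sample in CPM (TMM-normalized), with 3 samples of 4LPS in red left of 3 samples of NS in blue. Lines mark the mean and SD, symbols mark replicates 1 to 3, and every axis starts at 0. Nfkb1, Nfkb2, Relb and Bcl3 show no overlap between the groups, and Nfkbiz is widely spread in both.

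Among the subunits, Nfkb2 and Relb, whose products form the dimer of the alternative pathway, were the most changed. Nfkb2 was at 77.6, 83.9 and 96.6 CPM in the 4LPS samples, against 42.4, 45.7 and 46.0 CPM in the NS samples. All 4LPS samples were well above all NS samples, with a mean of 86.0 ± 9.64 CPM in 4LPS and 44.7 ± 2.02 CPM in NS (SD, n = 3 each). The fold change was 1.92 (log2 0.94, SE 0.09, 95% interval 0.74 to 1.15, adjusted p = 0.000377 by edgeR). The gene lies at chr19:46292759-46303812 on the plus strand of GRCm39 and has 23 exons in its canonical transcript. The sources used here do not say whether reads were counted by strand, and 24.5% of the exon bases of Nfkb2 are shared with exons of Psd on the opposite strand. Psd itself was listed at 1.35, 1.43 and 1.36 CPM in 4LPS and at 1.64, 0.57 and 1.24 CPM in NS, far under Nfkb2. A long non-coding gene, 4833438C02Rik, shares a further 13.7% of these bases on the opposite strand and is no row of the table, so its part in the level of Nfkb2 was not tested.

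Relb encodes the subunit that pairs mainly with p52 and p50, and it was at 39.6, 37.4 and 46.9 CPM in 4LPS samples, against 23.2, 23.0 and 23.1 CPM in NS samples. The NS samples were nearly equal and all lay below 4LPS. Relb was 1.79-fold higher in 4LPS (log2 0.84, SE 0.09, 95% interval 0.62 to 1.06, adjusted p = 0.00105 by edgeR). No other annotated exon overlaps those of Relb, which lies at chr7:19339017-19363425 on the minus strand.

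Nfkb1, the source of p105 and p50 and the subunit gene with the highest level, changed by less. It was at 316, 307 and 323 CPM in 4LPS and at 258, 270.5 and 270.1 CPM in NS. The groups did not overlap, and the means were 315 ± 8.08 CPM in 4LPS and 266 ± 6.95 CPM in NS (SD, n = 3 each). This is a 1.18-fold difference (log2 0.24, SE 0.04, 95% interval 0.15 to 0.34, adjusted p = 0.00845 by edgeR). Nfkb1 lies at chr3:135290264-135397742 on the minus strand, and 2.10% of its exon bases are shared with a long non-coding gene on the opposite strand.

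The subunits that carry the main transactivation domains of the classical pathway, Rela and Rel, did not pass the test. Rela, at chr19:5687493-5698161 on the plus strand, was at 153, 163 and 168 CPM in 4LPS and at 156, 162 and 143 CPM in NS. A long non-coding gene on the opposite strand, which is no row of the table, shares 5.65% of its exon bases. The groups overlapped, and the interval of the log2 fold change ran from -0.07 to 0.21 (estimate 0.07, adjusted p = 0.465 by edgeR). Rel, which encodes c-Rel and lies at chr11:23686847-23721264 on the minus strand, was at 102, 108 and 94.0 CPM in 4LPS and at 96.4, 96.7 and 103 CPM in NS. Its highest and its lowest sample were both 4LPS samples, and the interval of its log2 fold change ran from -0.11 to 0.19 (estimate 0.04, adjusted p = 0.718 by edgeR). Both intervals end below the lower bound of Nfkb2 and of Relb, but the difference between genes was not itself tested. The estimates of Rela and Rel were at or below -0.02 with library totals alone or on the FPKM scale, still without a call.

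**Figure D2:**
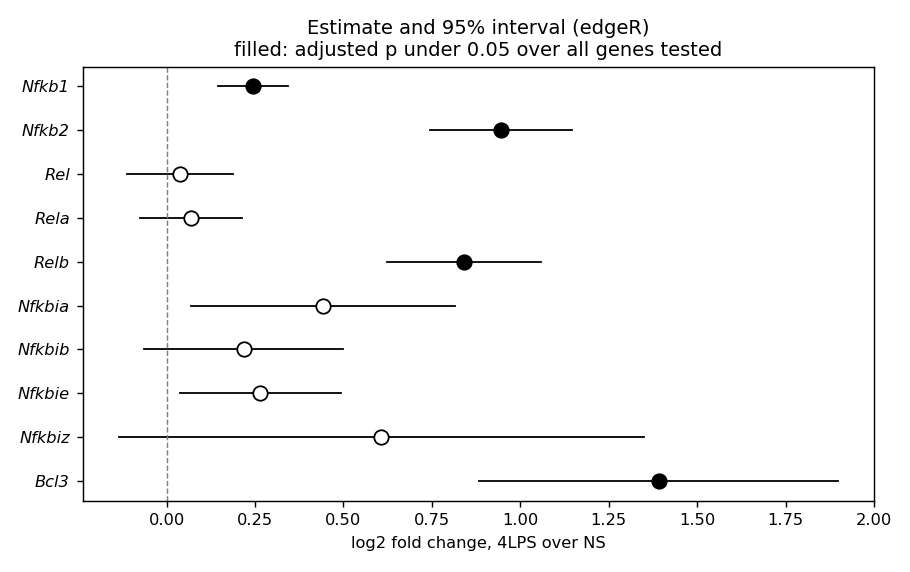
Log2 fold change of 4LPS over NS for the 10 genes (x axis), with 95% intervals from edgeR fitted on 3 samples per group. Filled points have an adjusted p under 0.05 over all genes tested. Bcl3 (1.39), Nfkb2 (0.94) and Relb (0.84) lie farthest to the right, and the intervals of Rel, Rela, Nfkbib and Nfkbiz cross 0.

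The classical inhibitors mask the nuclear localisation signal of NF-kB dimers. None of the 3 genes passed the test, and each showed overlap between groups. Nfkbia, which encodes IkB-alpha and is a rapid feedback target of NF-kB, lies at chr12:55535332-55539432 on the minus strand and shares 7.28% of its exon bases with a long non-coding gene on the opposite strand. It was at 98.7, 122 and 145 CPM in 4LPS and at 80.4, 80.3 and 108 CPM in NS. The highest NS sample, replicate 3, lay above the lowest 4LPS sample, replicate 1. The log2 fold change was 0.44 (SE 0.16, 95% interval 0.07 to 0.82, adjusted p = 0.1005 by edgeR). It passed without NS replicate 3 (log2 0.60, adjusted p = 0.0235 by edgeR), without 4LPS replicate 1 (0.58, adjusted p = 0.0463) and in DESeq2 with all samples (0.44, adjusted p = 0.0117), and its adjusted p ranged from 0.0088 to 0.26 over 19 alternatives.

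Nfkbie, the gene of IkB-epsilon at chr17:45866585-45874661 on the plus strand, was at 43.4, 52.8 and 54.2 CPM in 4LPS and at 40.7, 45.1 and 39.4 CPM in NS. Only 4LPS replicate 1 fell within the range of NS. The log2 fold change was 0.27 (SE 0.10, 95% interval 0.04 to 0.49, adjusted p = 0.103 by edgeR), and without 4LPS replicate 1 it was 0.37 (adjusted p = 0.0410, range 0.0410 to 0.2795 over the alternatives). Nfkbib, the gene of IkB-beta at chr7:28457486-28466937 on the minus strand, was at 23.9, 22.6 and 27.2 CPM in 4LPS and at 21.5, 23.8 and 18.2 CPM in NS. The ranges overlapped, with a log2 fold change of 0.22 (SE 0.12, 95% interval -0.06 to 0.50, adjusted p = 0.245 by edgeR). On the opposite strand, exons of the long non-coding gene Gm71901, of Ccer2 and of Sirt2 share 14.3%, 13.3% and 1.78% of the exon bases of Nfkbib. Gm71901 is no row of the table. Ccer2 was at 0.14 CPM or less in every sample, whereas Sirt2 was at 138 to 150.5 CPM in 4LPS and 125 to 134 CPM in NS.

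The nuclear IkB proteins act on DNA-bound NF-kB and do not hold it in the cytoplasm. BCL3 binds dimers of p50 or p52 and can turn them into activators or repressors. Bcl3 had the lowest level of the 10 genes and the largest fold change. It was at 8.90, 8.09 and 9.63 CPM in 4LPS, against 3.96, 2.33 and 3.84 CPM in NS. The groups were far apart, from 132, 119 and 142 counts in the 4LPS samples and 63, 37 and 62 counts in the NS samples. The gene lies at chr7:19541553-19557570 on the minus strand, and a long non-coding gene on the opposite strand shares 5.99% of its exon bases. Bcl3 was 2.62-fold higher in 4LPS (log2 1.39, SE 0.22, 95% interval 0.88 to 1.90, adjusted p = 0.00522 by edgeR).

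Nfkbiz, at chr16:55631738-55659262 on the minus strand, encodes IkB-zeta, which LPS and IL-1 induce and which is needed for a secondary set of target genes such as Il6. It was at 72.0, 68.9 and 108 CPM in 4LPS and at 34.9, 44.1 and 84.5 CPM in NS. Replicate 3 was the highest sample in both groups, and NS replicate 3 lay above 2 of the 4LPS samples. The log2 fold change was 0.61 with a wide interval (SE 0.32, -0.14 to 1.35, adjusted p = 0.220 by edgeR). Without NS replicate 3 it was 1.07 (adjusted p = 0.0116, range 0.0116 to 0.4996 over the alternatives).

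The calls of the 4 genes that passed held in each of the 19 alternatives, including without any one sample. The log2 fold change ranged from 0.81 to 1.02 for Nfkb2, from 0.70 to 0.92 for Relb, from 0.15 to 0.28 for Nfkb1 and from 1.02 to 1.52 for Bcl3. The highest adjusted p was 0.00334 for Nfkb2, 0.00713 for Relb, 0.0484 for Nfkb1 and 0.0261 for Bcl3. Rel, Rela and Nfkbib passed in 0 of the 19. The number of genes of the set that passed was 4 to 6, and 0 were lower in any alternative. Over all genes, 60.8% of the calls were higher in 4LPS, against 34.6% with library totals alone and 35.6% on the FPKM scale, and the median log2 fold change of all genes was -0.11 with library totals alone.

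Levels between genes were compared in FPKM, which is scaled for gene length. In 4LPS the order of the mean levels was Nfkbia (91.0 ± 17.0 FPKM), Nfkb1 (79.5 ± 1.78), Rela (65.5 ± 2.59), Nfkb2 (29.8 ± 3.11), Nfkbiz (24.1 ± 6.17), Nfkbie (22.5 ± 2.50), Nfkbib (21.6 ± 1.97), Relb (20.9 ± 2.46), Rel (13.7 ± 1.07) and Bcl3 (5.53 ± 0.48; SD, n = 3 each). Nfkbia and Nfkb1 overlapped, and so did each neighbouring pair between Nfkb2 and Relb. In NS the order was Nfkb1 (71.7 ± 1.06 FPKM), Nfkbia (71.4 ± 12.7), Rela (66.7 ± 4.53), Nfkbie (20.0 ± 1.35), Nfkbib (19.7 ± 2.63), Nfkbiz (16.9 ± 8.01), Nfkb2 (16.5 ± 0.53), Rel (14.2 ± 0.49), Relb (12.4 ± 0.20) and Bcl3 (2.25 ± 0.62; SD, n = 3 each). There the first 3 genes overlapped as neighbours, as did the run between Nfkbie and Nfkb2. Relb lay above Rel in every 4LPS sample and below Rel in every NS sample. Nfkb2 was above 83.8% of the genes of the table in mean FPKM in 4LPS and above 71.3% in NS, and Bcl3 was above 50.7% in 4LPS and 37.9% in NS.

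The make-up of the NF-kB subunit mRNA differed accordingly. Summed over the 5 subunit genes, the level was 204, 206 and 218 FPKM in 4LPS and 182, 185 and 178 FPKM in NS. Nfkb2 and Relb together held 23.2%, 23.2% and 26.1% of this sum in 4LPS samples, against 15.7%, 15.7% and 16.4% in NS samples. Both of these genes took a larger share in every 4LPS sample than in any NS sample. Rela held 30.7%, 32.1% and 31.1% in 4LPS and 37.7%, 37.8% and 34.6% in NS, and Rel held 6.78%, 7.10% and 5.75% in 4LPS and 7.74%, 7.47% and 8.31% in NS. The share of Nfkb1 overlapped, at 37.1% to 39.3% in 4LPS and 38.8% to 40.6% in NS. The shares add to a fixed total, so a larger share of some genes leaves a smaller one for others, and with 3 samples against 3 they were not tested. The ratio of Nfkb2 to Nfkb1 was 0.338, 0.374 and 0.411 in 4LPS and 0.225, 0.231 and 0.233 in NS, and that of Relb to Rela was 0.322, 0.285 and 0.348 in 4LPS and 0.185, 0.175 and 0.201 in NS. In contrast, the summed FPKM of the classical inhibitors over that of the subunits was 0.563, 0.650 and 0.718 in 4LPS and 0.576, 0.578 and 0.685 in NS, which overlapped. mRNA shares are not shares of protein or of dimers.

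**Figure D3:**
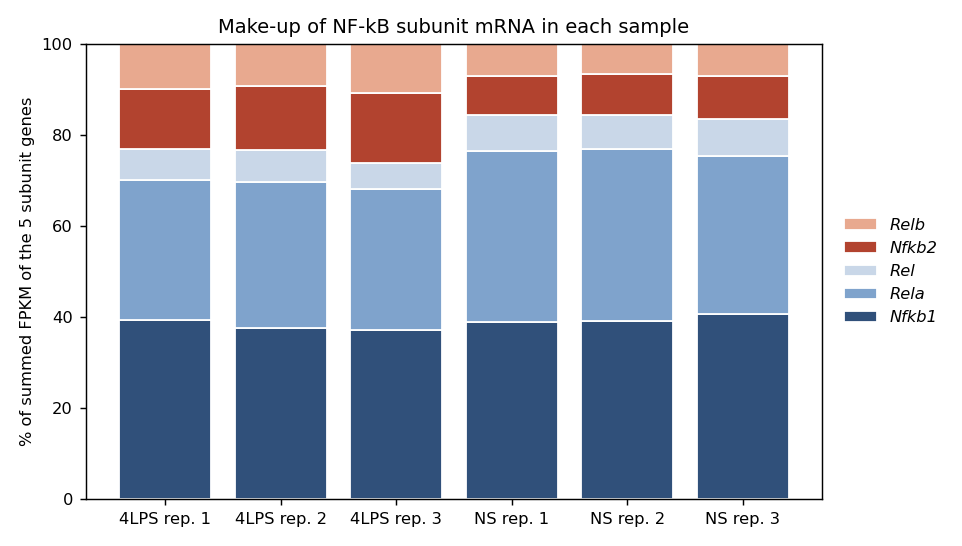
Share of each subunit gene in the summed FPKM of the 5 NF-kB subunit genes (y axis, %), 1 bar per sample, with 4LPS left of NS. The red parts at the top, Nfkb2 and Relb, together hold 23.2% to 26.1% in 4LPS and 15.7% to 16.4% in NS.

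Genes around the NF-kB core were read from lists of the pathway, and each list is given by its counts against the 9.95% of all genes that were higher. Of 12 genes of the IKK complex and upstream kinases, 3 were higher in 4LPS and 0 were lower, with a median log2 fold change of 0.11. Ikbke, an IKK-related kinase, was at 5.67, 4.83 and 8.14 CPM in 4LPS and at 1.64, 1.07 and 1.61 CPM in NS (log2 2.10, adjusted p = 0.00256 by edgeR). Map3k8, the kinase TPL2 that is held by p105, was at 22.1, 26.1 and 25.3 CPM in 4LPS and at 12.8, 12.5 and 15.6 CPM in NS (log2 0.84, adjusted p = 0.00314 by edgeR). Both calls held in each alternative. The increase of Tbk1, a relative of Ikbke, was smaller (log2 0.22, adjusted p = 0.0440 by edgeR), and it lost its call without any one of 5 of the 6 samples (adjusted p up to 0.129). The genes of the core complex did not pass, with log2 fold changes of 0.07 for Chuk, 0.16 for Ikbkb and 0.03 for Ikbkg, nor did Map3k14, the gene of NIK (0.22, adjusted p = 0.0627 by edgeR).

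Of 16 ubiquitin ligases and adaptors that activate IKK, 2 were higher and 0 were lower (2 to 4 higher without any one sample, with 4 without NS replicate 3). These were Birc3, the gene of cIAP2 (log2 0.59, adjusted p = 0.00235 by edgeR), and Traf2 (log2 0.46, adjusted p = 0.00489). Of 6 tested genes that degrade IkB, 0 were higher and Skp1 was lower (log2 -0.31, adjusted p = 0.0475 by edgeR), a call lost without any sample other than NS replicate 2.

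Of 19 other inhibitors and nuclear regulators, 5 were higher in 4LPS and 0 were lower, with a median of 0.11. Tnip1, which encodes the A20-binding protein ABIN1, was at 48.1, 52.5 and 62.0 CPM in 4LPS and at 23.4, 28.6 and 24.7 CPM in NS (log2 1.08, adjusted p = 0.000766 by edgeR). Traf3, which targets NIK for degradation and so restrains the alternative pathway, was also higher (log2 0.53, adjusted p = 0.00321 by edgeR). The others were N4bp1 (log2 0.26, adjusted p = 0.0122 by edgeR), the deubiquitinase gene Cyld (0.21, adjusted p = 0.0246) and the RNase gene Zc3h12a (0.46, adjusted p = 0.0271), which passed in 16, 11 and 13 of the 19 alternatives. The list had 2 genes higher on each of 3 FPKM settings, 3 genes higher without 4LPS replicate 3 or NS replicate 1 or 2, and 7 without NS replicate 3. Tnfaip3, the gene of the deubiquitinase A20, resembled Nfkbiz in that NS replicate 3 was high, with 175, 220.4 and 254 CPM in 4LPS and 118, 128 and 203 CPM in NS (log2 0.53, adjusted p = 0.127 by edgeR). Without that sample its log2 fold change was 0.82 (adjusted p = 0.00756 by edgeR, range 0.00518 to 0.315 over the alternatives). The nuclear IkB gene Nfkbid did not pass (log2 0.24, adjusted p = 0.533 by edgeR).

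Of 8 tested receptors and ligands of the alternative pathway, 3 were higher and 0 were lower, with a median of 0.45. Ltb, a chain of the lymphotoxin ligand, was at 8.16, 8.50 and 9.02 CPM in 4LPS and at 4.22, 5.03 and 5.14 CPM in NS (log2 0.83, adjusted p = 0.00772 by edgeR). The others were Tnfsf13b, which encodes BAFF (log2 0.63, adjusted p = 0.0275 by edgeR), and Tnfrsf11a, which encodes RANK (log2 0.27, adjusted p = 0.0444). Of these, Ltb alone passed without each sample in turn, and the list had 1 gene higher without 4LPS replicate 1 or 3 or NS replicate 1 or 2.

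Of 33 tested genes known as NF-kB targets, 13 were higher and 0 were lower, with a median of 0.60. At an unadjusted edgeR p under 0.05, for which the share of all genes was not determined, 20 were higher and 2 were lower. These 2 were Il6 (log2 -0.73, adjusted p = 0.147 by edgeR) and Sod2 (log2 -0.18, adjusted p = 0.148), which were not called. The acute phase gene Saa3 was at 314, 379 and 572 CPM in 4LPS and at 0, 0.06 and 0 CPM in NS. The chemokine gene Ccl5 was at 56.8, 55.0 and 74.3 CPM in 4LPS and at 1.32, 1.2 and 2.29 CPM in NS (log2 5.26, adjusted p = 2.77e-05 by edgeR). The survival genes Bcl2a1d (log2 1.38, adjusted p = 0.000762 by edgeR) and Bcl2a1a (log2 1.05, adjusted p = 0.00173) were higher too, but as near-identical copies they are uncertain one by one. Another copy on the list, Bcl2a1b, had means of 61.9 CPM in 4LPS and 48.9 CPM in NS and was not called (log2 0.34, adjusted p = 0.0562 by edgeR). Tnf, a classical early target, was at 8.23, 8.29 and 20.6 CPM in 4LPS and at 6.80, 8.43 and 18.5 CPM in NS, with replicate 3 high in both groups and no call (adjusted p = 0.861 by edgeR, and 0.265 without NS replicate 3). The count of this list was 9, 12 and 5 without 4LPS replicates 1, 2 and 3 and 8, 7 and 22 without NS replicates 1, 2 and 3. It was 7 on each of 3 FPKM settings.

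**Figure D4:**
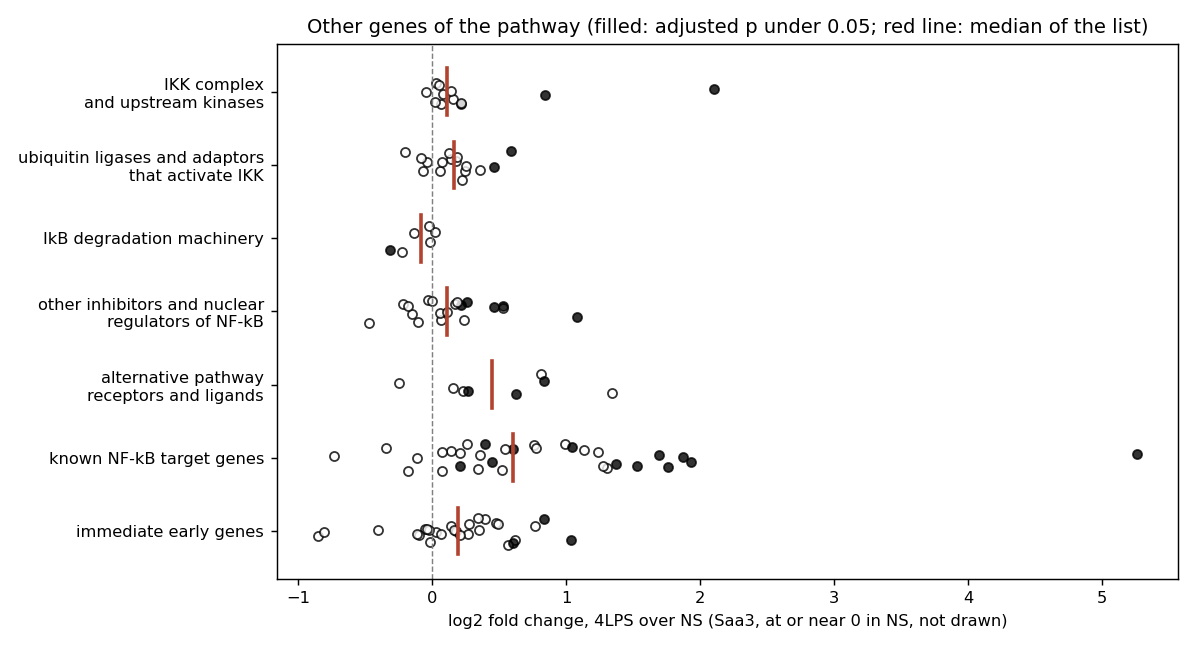
Log2 fold change of 4LPS over NS (x axis) for the tested genes of 7 lists around NF-kB, 1 point per gene, filled where the adjusted p is under 0.05. Red lines mark the medians, from -0.08 for IkB degradation to 0.60 for known NF-kB targets, and Saa3 is left out because 2 of its 3 NS values are 0.

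Other measures moved with the groups or with single samples. The 10 microglial markers, such as Cx3cr1, summed to 45737 to 46323 CPM in 4LPS and 46771 to 49341 CPM in NS, so the cells carried the markers of their label. P2ry12 was the 1 of these markers called lower by edgeR. With DESeq2, 7 of the 10 were lower and 1 was higher, against 991 lower and 1428 higher of 13150 genes. Of the 10 NK cell markers, whose sums are given with the counts, 10 were higher. T cell markers summed to 13.6 to 15.5 CPM in 4LPS and 4.09 to 5.76 CPM in NS, and 4 of 4 tested genes were higher. Cd3d, Cd3e and Cd3g were not tested and were at most 0.74 CPM in any sample, though each was higher in every 4LPS sample than in any NS sample. Themis, also not tested, overlapped. The B cell sum was 21.8 to 22.2 CPM in 4LPS and 14.2 to 19.5 CPM in NS, nearly all of it Cd79b, with 0 of 1 tested gene higher and Ms4a1 and Pax5 under 1 CPM. Dendritic cell markers summed to 57.0 to 79.5 CPM in 4LPS and 43.6 to 59.0 CPM in NS, with 5 of 10 higher. Neutrophil markers summed to 1345 to 1986 CPM in 4LPS and 900 to 1429 CPM in NS, with 1 of 10 higher. That gene was Csf3r, a large part of the sum, at 846 to 923 CPM in 4LPS and 697 to 749 CPM in NS. The median log2 fold change of the neutrophil list was 1.07. Its other genes varied more, such as S100a8 at 242, 94.1 and 144 CPM in 4LPS and 40.5, 35.7 and 154 CPM in NS. The sums of 8 monocyte markers overlapped at 201 to 331 CPM in 4LPS and 189 to 380.1 CPM in NS, with 0 called by edgeR. By DESeq2 3 were higher, against 10.9% of all genes. At an unadjusted edgeR p under 0.05, for which the share of all genes was not determined, 3 were higher. Of 8 astrocyte markers 4 were lower, and of 8 endothelial markers 3 were lower. Choroid plexus markers varied widely within both groups, with sums of 3374, 17.9 and 874 CPM in 4LPS and 10173, 8516 and 1067 CPM in NS, and 0 of 8 were called by edgeR, by DESeq2 or at an unadjusted p under 0.05. Markers of border-associated macrophages overlapped at 529, 233 and 359 CPM in 4LPS and 289, 313 and 422 CPM in NS, with 1 of 8 higher (Ms4a7). The part of these other cell types in the levels of Nfkb2, Relb, Nfkb1 and Bcl3 was not tested. Nor was it tested for the genes of the pathway lists, such as Ccl5 and Ltb. Ccl22 and Ccr7 were counted as higher both among the NF-kB targets and among the dendritic cell markers. Of 28 immediate early genes, which respond quickly to stimulation and to tissue dissociation, 3 were higher (Dusp1, Cebpb and Socs3, with log2 fold changes of 1.03, 0.61 and 0.83), and their sum overlapped at 10019 to 14213 CPM in 4LPS and 8009 to 11603 CPM in NS. This count was 9 without NS replicate 3, 2 on each of 3 FPKM settings and 1 without 4LPS replicate 2 or 3 or NS replicate 1. Nfkbia and Nfkbiz, which are also quickly induced, were highest in replicate 3 of each group. The sum of immediate early genes was 10019, 11362 and 14213 CPM in 4LPS replicates 1 to 3. In NS replicates 1 to 3 it was 8009, 11206 and 11603 CPM. Replicates 2 and 3 were thus close in sum, but genes of the list differed between them in both directions. Rhob was at 2609 CPM in NS replicate 2 and 2181 CPM in NS replicate 3, and Jun at 1837 and 1581 CPM. By contrast, Atf3 was at 137 and 256 CPM in these samples, and Nr4a1 at 25.1 and 96.4 CPM. Nfkbia was at 80.3 CPM in NS replicate 2 and 108 CPM in NS replicate 3. Hspa1a and Hspa1b, of the same list, were at 670 and 806 CPM in NS replicate 3 and 225 and 258 CPM in NS replicate 2. The part of this sum in the levels of Nfkbia and Nfkbiz was not tested.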

How the data were processed

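RNA-seq was performed on cortical CD11b+ cells, with 3 samples of 4LPS and 3 of NS, grouped by the sample labels. The authors sequenced paired reads, mapped them with HISAT2 2.0.4 and Bowtie2 2.2.5 to mm39 (the submitters' notes name mm39 and mm10) and quantified them with RSEM 1.2.8, and DESeq2 1.16.1 is named for their tests. The authors deposited expected counts, which are estimated and not normalized, and FPKM and TPM values, scaled for gene length and library total. They also deposited a normalized signal, the count divided by a size factor. TPM, the normalized signal and group means were not used. Which gene annotation was counted is not given in these sources.

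Rounding was applied to the expected counts (2.77% were not whole). edgeR 4.0.16 in R 4.3.3 was applied with TMM factors, filterByExpr and the quasi-likelihood F-test, adjusted over 13151 genes. Intervals are at 95%. Scripts were tested on simulated data. Samples of a group differed by far more than sampling noise. Alternatives were other scaling factors, no filter, a minimum of 50 counts in 3 samples, DESeq2 1.42.0, a voom fit, and limma 3.58.1 with log2(FPKM + 1) for genes reaching 1 FPKM in 3 samples (also with a pseudocount of 0.1, or unfiltered), a replicate block, a gene length correction, and leaving out each sample. The genes named are the 10 genes of the set and, from each list, up to 4 with the smallest adjusted p in a direction or all where 5 or fewer passed. Others (Chuk, Ikbkb, Ikbkg, Map3k14, Tnfaip3, Nfkbid, Tnf, Il6, Sod2, Bcl2a1b, Ccl22, Ccr7, Rhob, Jun, Atf3, Nr4a1, Hspa1a and Hspa1b) were named after their values were seen. The genes and lists were chosen with earlier results of these data known. Positions are from GENCODE on GRCm39. Protein sequences were not analysed here.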

Additional observations from a re-analysis of the deposited data

How the results depend on the processing

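The number of genes of the NF-kB set higher in 4LPS was 4 to 6 without any one sample and 0 were lower. The log2 fold change of Rel changed sign with no composition factor (-0.0587) and with limma on log2(FPKM + 1), log2(FPKM + 0.1) and log2(FPKM + 1) with no filter (-0.0558, -0.0596 and -0.0558), as did that of Rela (-0.0291, -0.0242, -0.0245 and -0.0242). These were not calls. Over all genes, 1308 were higher, against 823, 813 and 818 by limma on the same 3 FPKM settings and 781 to 1629 without any one sample. The 845 lower genes became 1711 with no composition factor, 1486, 1454 and 1335 on the FPKM settings and 363 to 1215 without any one sample. Fewer samples lower the power, and the cause of the other changes was not tested. Same-numbered samples deviated together only in part (r = 0.473, -0.262 and 0.066 for replicates 1, 2 and 3). Samples of different numbers gave r of -0.542 to 0.468. These are deviations from group means of 3 samples over all genes, so they cannot show whether the numbers pair the samples. The labels do not say whether they do. With the replicate block 6 genes of the set were higher, Nfkbia (log2 0.44, adjusted p = 0.0088 by edgeR) and Nfkbiz (0.67, adjusted p = 0.0131) in addition to the 4, and the block together with the length correction also gave 6. Over all genes the block gave 1275 higher and 1081 lower. Of the lists, known NF-kB targets had 22 genes higher with the block and 20 with the block and the length correction, against 13, immediate early genes 9 with either, against 3, and ubiquitin ligases and adaptors 4 with either, against 2. Nfkb2, Relb, Nfkb1 and Bcl3 passed in each of the 19 alternatives. The shallowest sample was NS replicate 1, with 15158342 counts. Bcl3 had the fewest counts of the set, down to 37 in NS replicate 2, which was not the shallowest.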
